A study of Mus musculus with 2 samples.

Results

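Semaphorins, plexins, ephrins and Eph receptors are guidance molecules that tell growing axons and vessels where to go. The genes described here are those whose symbols name a class 3 to 7 semaphorin, a plexin, an A or B ephrin or an EphA or EphB receptor, and were taken by symbol alone, with no cut on their values. They were 51 of the 32285 genes listed in the files, with 20 semaphorins, 9 plexins, 8 ephrins and 14 Eph receptors. Their RNA was measured by single-cell RNA sequencing (scRNA-seq) in mouse cells sorted for eYFP at embryonic stage E13.5, in 1 library per genotype, each pooled from 3 embryos. The control was Isl1-Cre;R26R-eYFP and the mutant Isl1-Cre;R26R-eYFP;Pik3caH1047R, so both carried the Cre and the reporter and the mutant alone carried the activated form of the PI3-kinase catalytic subunit. Cre was expressed from Isl1, which is active in cardiopharyngeal mesoderm and in many other cells, so recombined cells of every class carried the mutant allele. The labels give the tissue as pharyngeal arch, and the protocol describes the body above the liver.

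Semaphorins are secreted or membrane-bound ligands, and most act through plexins, with the neuropilins Nrp1 and Nrp2 as co-receptors for the class 3 proteins. Ephrins are membrane-bound ligands of the Eph receptor tyrosine kinases, so both partners signal at contacts between cells. In blood vessels Efnb2 is a classical marker of arteries and its receptor Ephb4 of veins, and Plxnd1 is the endothelial receptor of Sema3e.

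Kept cells had a number of detected genes above 2000 and below 9000, with under 10% mitochondrial UMIs (unique molecular identifiers, 1 per captured transcript). These were 2783 of 4505 control cells with 63153191 UMIs and 3489 of 5357 mutant cells with 69717583 UMIs, and 12 cell barcodes occurred in both libraries. Classes were rebuilt by clustering and named from marker genes, so they are called X-like. The libraries differed in embryo sex, with 95.5% female-like cells in the control and 33.6% in the mutant, in median depth, with 20412 and 16839 UMIs per cell, and in makeup, with 147 and 694 endothelial cell (EC)-like cells. All 15 EC markers were detected in the EC-like cells of both libraries, at a summed level of 6961 CPM in the control and 6785 CPM in the mutant, where CPM is UMIs per 1000000 UMIs of the class. Levels below are such CPM with 95% counting intervals. With 1 library per genotype there is no replicate and no test, and each interval covers counting error only. A gene is said to differ where it had at least 20 UMIs over both sides and the interval of its ratio lay beyond 1.5-fold. How often all genes met that criterion is given beside the counts, and the CPM of different genes are not compared with each other.

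**Figure D1:**
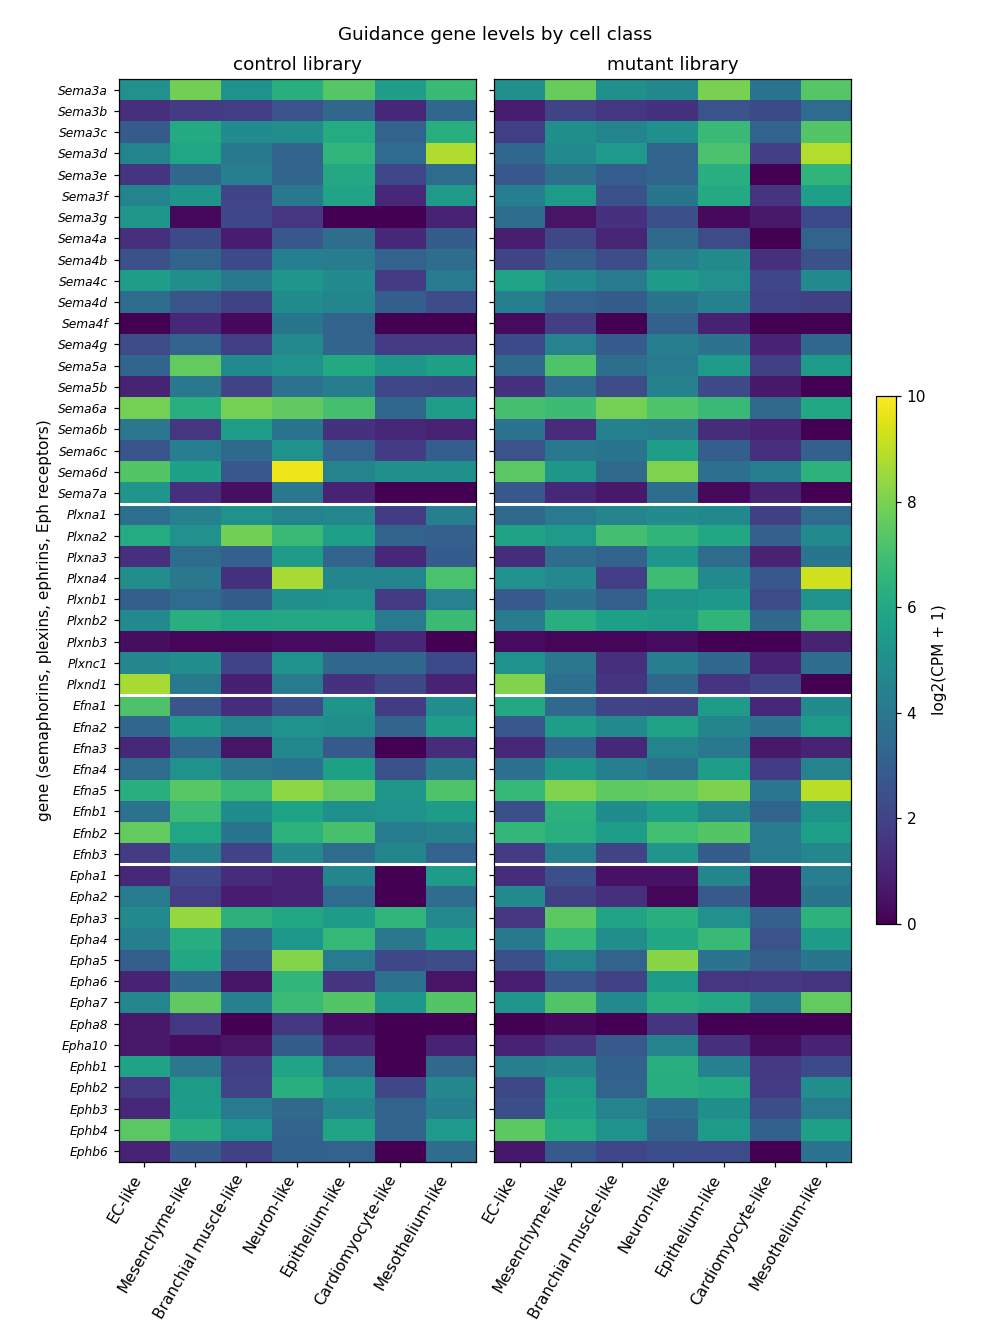
Levels of the 51 genes (rows, grouped into semaphorins, plexins, ephrins and Eph receptors) in the 7 cell classes with at least 50 cells in each library (columns), as log2(CPM + 1), with the control library on the left and the mutant library on the right. Plxnd1, Ephb4 and Efna1 stand out in the EC-like column, Sema3d in the mesothelium-like column and Sema6d and Epha5 in the neuron-like column of both libraries.

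Some guidance genes were highest in the same cell class in both libraries. Of the 51 genes, 32 had their highest level in the same class in both libraries, and for 14 of them the interval of that class lay apart from that of the next class in both libraries. The same count was not made over all genes, so these numbers do not set guidance genes apart from other genes. Efna1, Ephb4 and Plxnd1 belonged to EC-like cells in this way. The neuron-like genes of this kind were Epha5, Epha6, Plxna3, Sema6c and Sema6d. Epha3 and Sema5a belonged to mesenchyme-like cells, Plxnb2 and Sema3d to mesothelium-like cells, Plxna2 to branchial muscle-like cells and Sema4c to neural crest-like cells, which numbered 54 in the control and 24 in the mutant and were not compared between genotypes. No gene was set apart in this way in epithelium-like or cardiomyocyte-like cells or in the unnamed myeloid and globin cluster. A hepatoblast-like cluster, with 0 control and 47 mutant cells, was left out of this ranking. Its cells stayed among all other cells of the mutant library in the comparisons below.

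EC-like cells stood out for the Sema3e receptor gene Plxnd1, at 416 CPM in the control and 274 CPM in the mutant, against 9.10 and 6.80 CPM in all other cells of the same library. Efna1, a ligand of EphA receptors, was at 146 and 64.1 CPM against 6.38 and 8.86 CPM in the pooled remaining cells. Epithelium-like cells came next for it, at 35.5 and 43.6 CPM, with intervals apart in both libraries. Sema3g, a secreted semaphorin, was at 38.2 and 11.3 CPM against 2.62 and 1.57 CPM, although neural crest-like cells were higher for it, at 62.2 and 13.1 CPM, with intervals apart in the control. The receptor gene Epha2 was at 16.7 and 25.7 CPM against 2.65 and 2.52 CPM. Plxnd1, Efna1, Sema3g and Epha2 were named for the largest ratios over the pooled remaining cells in both libraries. That they were higher in EC-like cells thus follows from the choice. Genes named for the other classes in the next paragraph were chosen in the same way. Over all 51 genes, 11 were higher in EC-like than in other control cells and 26 were lower, where 8.99% and 14.1% of all genes were. In the mutant library 9 of 49 were higher and 32 lower, beside 11.4% and 22.4% of all genes. The genes higher in both libraries were Efna1, Epha2, Ephb4, Plxnd1, Sema3g, Sema4c, Sema6d and Sema7a. Efnb2, Ephb1 and Sema6a were higher in the control library and did not meet the criterion in the mutant, and Plxnc1 did so in the mutant alone. The difference between the libraries was not tested.

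Mesenchyme-like cells were above the pooled remaining cells for Sema5a, Epha3, Efnb1 and the repulsive ligand gene Sema3a. Sema3a was at 231 CPM in the control and 206 CPM in the mutant against 50.3 and 49.1 CPM in the pooled cells, and in the mutant epithelium-like cells were higher for it, at 251 CPM (238 to 265). Epha3 stood at 339 and 176 CPM there, and at 61.4 and 36.1 CPM in all other cells. Branchial muscle-like cells had Sema6b at 48.2 and 20.1 CPM, Plxna2 at 233 and 127 CPM and Sema6a at 243 and 240 CPM, each above the remaining cells of its library. Control EC-like cells were almost level with them for Sema6a, at 242 CPM (225 to 259). In neuron-like cells Epha5 was at 286 and 295 CPM against 26.9 and 10.4 CPM, and Epha6 at 94 and 43.2 CPM against 3.77 and 2.47 CPM. Epithelium-like cells had Sema3e at 65.0 and 75.7 CPM and Epha1 at 22.9 and 22.5 CPM. Mesothelium-like cells were higher for Epha1 in the control, at 43.7 CPM (35.4 to 53.4), with intervals apart. They were also higher for Sema3e in the mutant, at 93.1 CPM (75.9 to 113), with intervals that overlapped. Mesothelium-like cells had Sema3d at 445 and 464 CPM against 35.4 and 30.7 CPM. Cardiomyocyte-like cells were low for most members, and Efnb3, at 23.1 and 16.3 CPM, was the one named there that lay above the remaining cells in both libraries.

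The promoters of the artery and vein pair and of the pair of EC-like genes that return most often below are shown for context, as the 250 bases before the RefSeq start on GRCm38.p6, 5′ to 3′ on the gene's strand. RefSeq promoter sequence was matched for 45 of the 51 genes, and 4 short motifs were searched on both strands. Matches are in capitals. The motifs were TGGGAA, the core bound by the Notch effector RBPJ, ACGTG, the core of hypoxia response elements, CGGAAG, a core of ETS factors, and ACAAAG, a core of SOX factors.
Efnb2, minus strand of chr8:8661243-8661492: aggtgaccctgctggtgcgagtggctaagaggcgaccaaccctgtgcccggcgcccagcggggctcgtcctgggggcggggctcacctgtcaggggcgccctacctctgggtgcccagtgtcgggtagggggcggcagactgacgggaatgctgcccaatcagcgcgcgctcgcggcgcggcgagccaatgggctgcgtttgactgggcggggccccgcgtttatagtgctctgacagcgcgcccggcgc
Ephb4, plus strand of chr5:137349859-137350108: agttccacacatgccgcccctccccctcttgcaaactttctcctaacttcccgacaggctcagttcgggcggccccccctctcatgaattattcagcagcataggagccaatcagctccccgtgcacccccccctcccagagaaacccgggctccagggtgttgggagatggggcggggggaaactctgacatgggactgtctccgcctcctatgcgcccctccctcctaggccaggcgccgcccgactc
Efna1, minus strand of chr3:89280952-89281201: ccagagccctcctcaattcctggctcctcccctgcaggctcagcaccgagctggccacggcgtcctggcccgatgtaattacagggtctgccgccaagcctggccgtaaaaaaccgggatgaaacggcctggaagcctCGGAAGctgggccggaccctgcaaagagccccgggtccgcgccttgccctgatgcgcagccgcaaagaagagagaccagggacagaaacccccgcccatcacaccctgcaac
Sema7a, plus strand of chr9:57939862-57940111: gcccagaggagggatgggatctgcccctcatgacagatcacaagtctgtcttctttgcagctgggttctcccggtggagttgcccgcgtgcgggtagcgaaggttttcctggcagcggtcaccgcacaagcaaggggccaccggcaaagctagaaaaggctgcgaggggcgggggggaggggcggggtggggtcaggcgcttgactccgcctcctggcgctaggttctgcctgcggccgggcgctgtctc
Only Efna1 held a match among these, a single CGGAAG. Efna1 had 2 RefSeq entries, of which the first is shown, and the other held no match. The shown window reaches past the GENCODE start of Efna1, at 89281142, and the match lies inside the annotated gene. The Efnb2 promoter was 72% G and C with 27 CpG dinucleotides, Efna1 had 16, Sema7a 17 and Ephb4 12, where the median over all 32851 promoters was 6 and that over the 59 promoters of the guidance genes was 16. TGGGAA occurred in the window of 21.6% of all promoters, ACGTG in 16.6%, CGGAAG in 13.6% and ACAAAG in 16.5%. Among the 45 matched genes, 10 held TGGGAA, 10 ACGTG, 6 CGGAAG and 7 ACAAAG in at least 1 of their promoters. These counts are by gene and the shares above by single promoter, so they are in unlike units, and genes with several promoters had more windows to match. For the 9 genes that were lower in mutant EC-like cells, 8 were matched, and 1, 0, 2 and 1 of these held the respective motif. The windows do not include other starts or distal elements.

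In EC-like cells no guidance gene was higher in the mutant and 9 were lower. They were the semaphorins Sema7a, Sema3g, Sema3d and Sema6a, the ephrins Efnb1, Efna1 and Efnb2, and the receptors Epha3 and Ephb1. Of the 51 genes, 43 had at least 20 UMIs, so the 9 were 20.9% of those tested, where 4.7% of all 14156 genes tested were lower and 4.66% higher. The median log2 ratio of the 43 genes was -0.11, beside -0.07 over all genes. Scaling by TMM moved every ratio by 0.12 and scaling by the median ratio by 0.10, so the sign of that median depended on the scaling. None of the 8 plexins tested met the criterion.

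**Figure D2:**
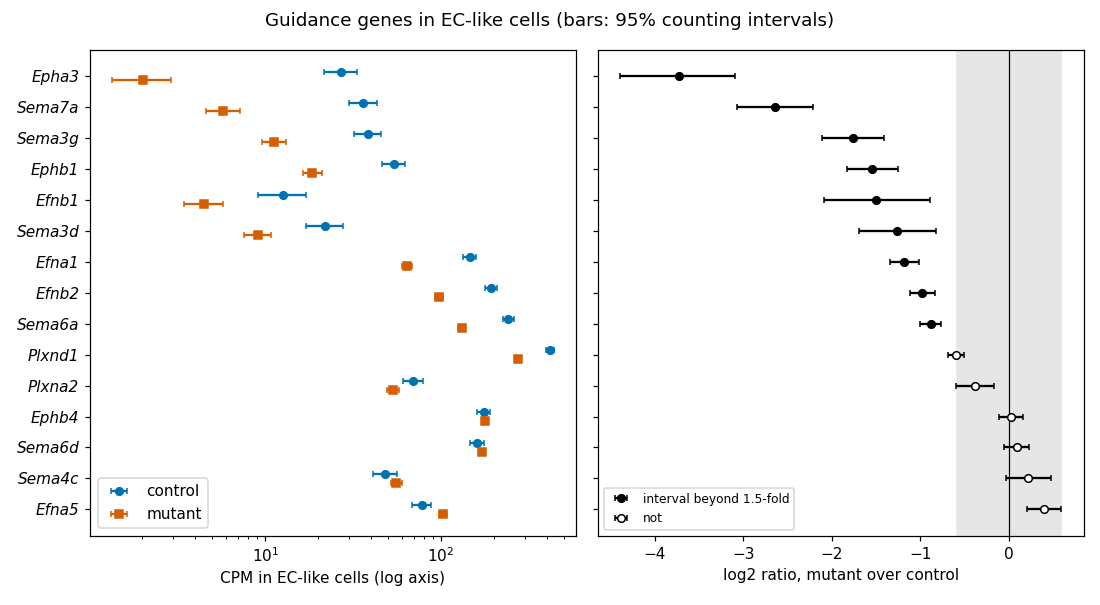
Guidance genes in EC-like cells that differed between the libraries or reached 50 CPM in one of them: CPM on a log axis at left (blue circles, control; orange squares, mutant) and the log2 ratio of mutant over control at right, with 95% counting intervals. The grey band spans 1.5-fold either way, and the 9 filled points lie wholly to its left.

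Among the semaphorins, Sema7a, a membrane-anchored member that also binds integrins, showed the largest ratio with UMIs spread over many cells. It had 117 UMIs in 39 of 147 control cells and 80 UMIs in 47 of 694 mutant cells, which gave 36.1 CPM (29.8 to 43.2) and 5.78 CPM (4.59 to 7.20). The log2 ratio was -2.64 (-3.07 to -2.22). Sema3g fell in level from 38.2 CPM (31.8 to 45.6) in the control to 11.3 CPM (9.58 to 13.2) in the mutant, with a log2 ratio of -1.76 (-2.11 to -1.41). Sema6a, a transmembrane semaphorin, was at 242 CPM (225 to 259) and 131 CPM (125 to 137), a log2 ratio of -0.88 (-1.01 to -0.76). In all 3 cases the intervals of the libraries did not overlap. Sema3d, at 21.9 CPM (17.1 to 27.6) and 9.11 CPM (7.59 to 10.9), had 42.3% of its control UMIs in 3 cells. Its log2 ratio was -1.26 (-1.70 to -0.82).

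The other semaphorins known from vessels did not meet the criterion. Sema6d, the ligand of Plxna1 in the heart, was at 161 CPM (147 to 175) in the control and 171 CPM (164 to 178) in the mutant, with a log2 ratio of 0.09 (-0.05 to 0.23). Sema4c was at 48.1 and 55.8 CPM, with a log2 ratio of 0.21 (-0.04 to 0.47). Sema3f, a ligand that acts through Nrp2, was at 21.9 and 19.0 CPM (log2 ratio -0.20, -0.59 to 0.20), and Sema3c, a ligand with roles in the outflow tract, had 20 and 36 UMIs (-1.24, -2.07 to -0.38). Sema3e, the ligand of Plxnd1, had 6 control and 78 mutant UMIs, or 1.85 and 5.64 CPM, and its log2 ratio of 1.61 had an interval from 0.42 to 3.10. That interval lies above 0 and includes changes under 1.5-fold.

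Among the receptors of semaphorins, Plxnd1 was at 416 CPM (394 to 438) in control and 274 CPM (265 to 283) in mutant EC-like cells. The intervals lay apart, and the log2 ratio of -0.60 (-0.69 to -0.51) reached across 1.5-fold. Plxna2, a receptor of class 6 semaphorins, was at 69.7 and 53.4 CPM (-0.39, -0.60 to -0.16). Nrp1, the co-receptor shared with VEGF-A, was lower in the mutant at 231 CPM against 403 CPM, with a log2 ratio of -0.80 (-0.90 to -0.71), and Nrp2 was at 405 and 300 CPM (-0.43, -0.52 to -0.34). Nrp1 was the 1 lower gene among the 37 tested of a list of 39 co-receptors and intracellular partners of plexins, Ephs and ephrins, where 4.7% of all genes were lower and 4.66% higher. The 3 higher genes were Grip1, a scaffold that binds B ephrins, at 62.0 CPM in the control and 195 CPM in the mutant (log2 ratio 1.65), Dpysl3, a collapsin response mediator, at 84.2 and 174 CPM (1.05), and the integrin gene Itgb1, at 715 and 1178 CPM (0.72). Grip1 was also among the leading genes of a shallow subset of EC-like cells described below.

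Among the ephrins, Efnb2 was at 192 CPM (178 to 208) in the control and 97.8 CPM (92.6 to 103) in the mutant, a log2 ratio of -0.98 (-1.11 to -0.84). Efna1 had a log2 ratio of -1.18 (-1.34 to -1.02), from 146 CPM (133 to 159) to 64.1 CPM (59.98 to 68.5). With cells thinned to 5000 UMIs neither met the criterion, at log2 ratios of -0.77 for Efnb2 and -0.79 for Efna1. Efnb1, a ligand of the same receptors as Efnb2, rested on 41 and 62 UMIs and had a log2 ratio of -1.50 (-2.09 to -0.89). In G1 cells alone it had 2 and 27 UMIs, and the ratio turned to 1.57. Efna5 was at 77.7 and 102 CPM, with a ratio of 0.40 (0.20 to 0.60) that did not meet the criterion.

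Their receptors moved differently from each other. Ephb4, the receptor of Efnb2 in veins, had almost the same level in both libraries, 175 CPM (161 to 190) and 178 CPM (171 to 185), and the interval of its log2 ratio ran from -0.11 to 0.16 around 0.03. Ephb1 was lower in the mutant, at 54.0 CPM (46.3 to 62.6) in the control and 18.5 CPM (16.3 to 20.9) in the mutant, with a log2 ratio of -1.54 (-1.83 to -1.26). It overlaps 1 other annotated gene on its strand, Gm29388. Epha3 had the largest ratio of all, -3.73 (-4.40 to -3.10), from 87 control and 28 mutant UMIs. A single control cell held 37 of the 87 UMIs and 3 cells held 78.2%, and with clusters drawn at resolution 0.8 the log2 ratio was -0.99. Ephb3 had 4 and 60 UMIs and a log2 ratio of 1.81 (0.38 to 3.74). The remaining genes tested did not meet the criterion. Among them Sema4d was at 10.5 and 19.0 CPM (0.86, 0.34 to 1.42), Epha7 at 23.4 and 35.6 CPM (0.60, 0.25 to 0.97), Epha2 at 16.7 and 25.7 CPM (0.62, 0.21 to 1.06), Plxnc1 at 24.0 and 33.5 CPM (0.48, 0.13 to 0.84) and Plxnb2 at 26.8 and 18.1 CPM (-0.57, -0.93 to -0.20). The 8 genes with fewer than 20 UMIs in EC-like cells were Epha6, Epha8, Epha10, Ephb6, Plxnb3, Sema3b, Sema4a and Sema4f.

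Markers of other cells differed between the libraries in EC-like cells, in both directions. The 12 mesenchyme markers summed to 253 CPM in the control and 128 CPM in the mutant, beside 7465 and 3760 CPM in mesenchyme-like cells, where Epha3 and Efnb1 were high. The 12 branchial muscle markers summed to 357 and 155 CPM, the 10 neuron markers to 230 and 401 CPM and the 8 neural crest markers to 73.1 and 239 CPM. Cardiomyocyte markers, at 67.5 and 92.5 CPM, and epithelium, mesothelium and hepatoblast markers were also higher in the mutant. Erythroid markers were lower, at 64.8 and 49.5 CPM, and mural and macrophage markers slightly so, at 120 and 116 CPM and 21.9 and 20.5 CPM. Within the EC-like class, the 12 arterial markers summed to 1421 CPM in the control and 611 CPM in the mutant, and the 8 lymphatic markers to 645 and 385 CPM. Ratios within subclusters are given below, and the part of these markers and of the other cell types in the ratios was not tested. Cells thinned to 5000 UMIs left 31 members tested, of which 4 were lower and 0 higher, beside 2.64% and 2.67% of all genes in thinned cells.

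EC-like cells were divided further into subclusters. The venous- and capillary-like subcluster held 72 control and 408 mutant cells, the arterial-like one 29 and 127, and the lymphatic-like one 19 and 31. A subcluster led by Eln, Fbln5 and Tbx20, with 24 and 106 cells, stayed unnamed because it carried arterial markers, at 6570 CPM in the control and 2610 CPM in the mutant, together with endocardial markers, at 1485 and 1460 CPM. The arterial-like subcluster was shallow in the mutant, at a median of 8365 UMIs per cell against 15129 in the control, and its arterial markers summed to 631 CPM there and 1985 CPM in the control. In the mutant this was close to the 611 CPM of the whole EC-like class, and its venous and capillary markers stood at 2555 CPM, so the mutant counts of arterial-like cells in this division rest on a weakly marked name. At a finer resolution the venous- and capillary-like subcluster had 21 and 131 cells, and the arterial-like one 21 and 43 cells with arterial markers at 2013 and 1243 CPM. Venous and capillary markers in that finer arterial-like subcluster stood at 1372 and 1815 CPM, above its arterial markers in the mutant. Its depth was also unequal, at a median of 23039 UMIs per control cell and 9541 per mutant cell. The mutant name is thus weakly marked in this division too. Results are therefore given for both divisions. In both libraries the subcluster led by Eln, Fbln5 and Tbx20 had a higher sum of arterial markers than the arterial-like subcluster of either division. Eln and Fbln5 are themselves on the arterial marker list and Tbx20 on the endocardial one. These sums thus include genes that lead the subcluster, and the higher arterial sum is not independent evidence of its type.

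Efnb2 followed the arterial division in both libraries. In the control it was at 477 CPM (419 to 540) in arterial-like and 91.1 CPM (77.6 to 106) in venous- and capillary-like cells, a log2 ratio of 2.39 (2.10 to 2.68). In the mutant the levels were 217 CPM (193 to 244) and 49.4 CPM (44.9 to 54.2), with a log2 ratio of 2.14 (1.92 to 2.35). With the finer subclusters the ratios were 2.60 and 2.39. In the first division both levels were thus lower in the mutant, while the intervals of the ratio between the subclusters overlapped in the 2 libraries. The difference between those ratios was not tested. In the finer division neither level met the criterion between the libraries. The subcluster led by Eln, Fbln5 and Tbx20 also had Efnb2 above venous- and capillary-like cells, at 401 CPM in the control and 241 CPM in the mutant, and it held Epha7, an EphA receptor gene, at 139 and 190 CPM where venous- and capillary-like cells had 2.25 and 4.20 CPM.

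Ephb4 did not show the converse in the first division and did so in part in the finer one. Its log2 ratio of arterial-like over venous- and capillary-like was -0.09 (-0.46 to 0.27) in the control and 0.68 (0.51 to 0.85) in the mutant. With the finer subclusters it was -0.83 (-1.31 to -0.35), from 114 and 202 CPM, in the control and -0.60 (-0.94 to -0.28), from 154 and 233 CPM, in the mutant. None of these 4 values met the criterion, and the direction in the mutant turned with the division.

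Other guidance genes were divided along the same line as Efnb2. In the finer subclusters Sema7a was at 120 CPM in arterial-like control cells and 64.7 CPM in arterial-like mutant cells, from 62 and 37 UMIs, and venous- and capillary-like cells held 1 and 3 UMIs. Sema3g had 46 and 41 UMIs in arterial-like cells and 4 and 0 in venous- and capillary-like cells. Efna1 was at 296 and 294 CPM in arterial-like cells against 72 and 39.3 CPM, with log2 ratios of 2.04 and 2.90, and Ephb1 at 79.4 and 59.5 CPM against 15.6 and 11.2 CPM. Ephb1 had a still higher level in lymphatic-like cells than in finer arterial-like cells of both libraries. Sema7a, Sema3g, Efna1, Ephb1 and Efnb2 were higher in arterial-like than in venous- and capillary-like cells in both libraries and in both divisions. On the other side, Plxnc1, the receptor of Sema7a, had 3 and 1 UMIs in finer arterial-like cells against 18 and 123 in venous- and capillary-like cells. Efna5 was lower in finer arterial-like cells, with log2 ratios of -3.01 and -2.09, but higher in the first division, at 1.24 and 1.96.

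In the first division 8 of 24 guidance genes tested in the control were higher in arterial-like cells and 0 were lower, beside 9.24% and 2.4% of all genes. In the mutant 20 of 35 were higher and 0 lower, beside 19% and 7.19%. The 8 control genes, which were Efna1, Efna5, Efnb2, Ephb1, Plxna4, Sema3g, Sema6d and Sema7a, were all among the 20. In the finer division 5 of 17 were higher and 3 lower in the control, beside 2.92% and 1.71% of all genes, and 11 of 24 were higher and 2 lower in the mutant, beside 7.03% and 3.51%. The 6 that were higher in the mutant alone were Epha4, Plxnd1, Sema3f, Sema4c, Sema6b and Sema6d. Plxnd1 was at 538 and 535 CPM in finer arterial-like and finer venous- and capillary-like cells of the control, and at 614 and 256 CPM in the mutant.

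**Figure D3:**
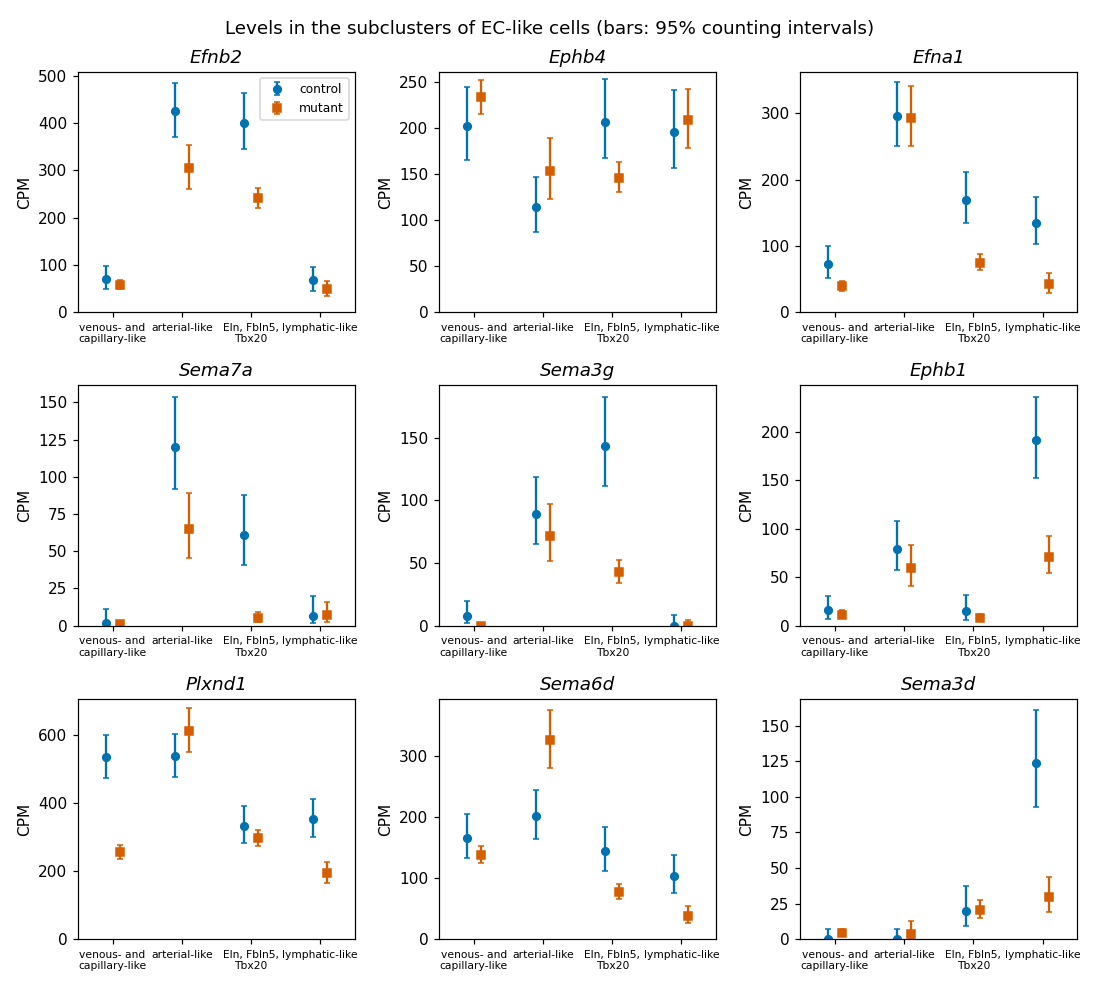
CPM of 9 guidance genes in 4 subclusters of EC-like cells (finer venous- and capillary-like, finer arterial-like, the subcluster led by Eln, Fbln5 and Tbx20, and lymphatic-like) in the control (blue circles) and the mutant (orange squares), with 95% counting intervals and linear axes from 0. Efnb2, Efna1, Sema7a and Sema3g are higher in finer arterial-like than in finer venous- and capillary-like cells of both libraries. Plxnd1 differs between the libraries in finer venous- and capillary-like cells, at 535 and 256 CPM.

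Most of the lower levels in the mutant were also seen within the venous- and capillary-like subcluster of the first division. The 12 arterial markers summed in that subcluster to 242 CPM in the control and 197 CPM in the mutant. There 9 of 37 guidance genes tested were lower, beside 3.88% of all genes, and 2 were higher, beside 4.84%. Of the 9 genes lower in all EC-like cells, 8 were lower there too. Sema3d was not, at a log2 ratio of -0.07 from 6 and 29 UMIs, and Plxnd1 was lower in addition, at 393 CPM in the control and 234 CPM in the mutant (log2 ratio -0.75, -0.87 to -0.62). The 2 higher genes were Sema3a, at 3.37 and 12.9 CPM, and its receptor gene Plxna4, at 5.06 and 18.7 CPM. In the finer venous- and capillary-like subcluster 2 of 25 were higher, again Sema3a and Plxna4, beside 2.87% of all genes, and Epha3, Epha4 and Plxnd1 were lower, beside 2.66%. Efnb2 there had a log2 ratio of -0.27 (-0.80 to 0.29). Of the 9 genes lower in all EC-like cells, Epha3 alone was lower in this finer subcluster. Some of the others, such as Sema7a and Sema3g, had under 20 UMIs in it. The finer division also held an unnamed subcluster of 3 control and 141 mutant cells, led by Fgf23, Trib3 and Slc2a3. Its part in the values of the first division was not tested. The divisions were drawn separately, so finer arterial-like cells need not lie in the arterial-like subcluster of the first division. How many lay in its venous- and capillary-like subcluster, and their part in the lower levels there, was not tested.

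Within arterial-like cells the result depended on the division. In the first division, where the arterial markers differed most between the libraries (1985 and 631 CPM), 4 of 23 guidance genes tested were lower in the mutant, beside 3.35% of all genes, and 6 were higher, beside 5.06%. The lower ones were Sema7a, at 126 and 27.2 CPM (log2 ratio -2.21, -2.83 to -1.60), Sema3g, at 77.2 and 31.6 CPM (-1.29, -1.95 to -0.63), Efnb2, at 477 and 217 CPM (-1.13, -1.38 to -0.88), and Efna1, at 272 and 131 CPM (-1.06, -1.39 to -0.73). The higher ones were Efna5, Plxna4, Plxnc1, Sema3a, Sema3d and Sema6d. Efna5 was at 88.8 and 250.3 CPM (1.49, 1.05 to 1.97), Sema6d at 311 and 555 CPM (0.84, 0.59 to 1.09) and Sema3d at 0 and 27 UMIs.

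In the finer arterial-like subcluster none of the 16 guidance genes tested differed between the libraries, beside 3.2% of all genes higher and 1.88% lower. Efnb2 was at 426 and 304 CPM (log2 ratio -0.48, -0.78 to -0.19), Efna1 at 296 and 294 CPM (-0.01, -0.34 to 0.31) and Sema7a at 120 and 64.7 CPM (-0.89, -1.52 to -0.28). The part of the arterial marker level in the difference between the divisions was not tested. Another unnamed subcluster of the finer division, led by Kirrel3, Nlgn1 and Nhs, held 12 control and 85 mutant cells. It was shallow, at a median of 8411 UMIs per cell, and Grip1 was among its 10 most raised genes. The part of this subcluster in the higher Grip1 level of all mutant EC-like cells was not tested. How many of its cells lay in the arterial-like subcluster of the first division, and their part in the values there, was not tested.

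In lymphatic-like cells, from 19 control and 31 mutant cells, 7 of 17 were lower, beside 4.52% of all genes, and 1 was higher, beside 3.2%. Sema3d was at 124 and 29.5 CPM there (-2.07, -2.82 to -1.35), Ephb1 at 191 and 71.3 CPM (-1.42, -1.93 to -0.93) and Sema6a at 279 and 50.4 CPM (-2.47, -3.02 to -1.95). Sema4d was the higher one, with 4 and 62 UMIs. The lymphatic markers themselves summed to 3074 CPM in the control and 1598 CPM in the mutant of this subcluster, and the part of that difference in these values was not tested.

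The 51 genes were also compared by pattern over the classes and EC-like subclusters, 12 units in each library and thus 24 points, which share libraries and depth. By rank correlation of CPM, the genes most like Efnb2 were Efna1 (rho 0.74), Sema6d (0.66) and Sema3f (0.66). Those most like Ephb4 were Efna1 (0.88), Epha2 (0.83) and Sema4c (0.66).

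Outside EC-like cells, the guidance genes that differed between the libraries were mostly other genes or went the other way. In branchial muscle-like cells, with 886 control and 841 mutant cells, 10 of 48 were higher in the mutant, beside 7.8% of all genes, and 5 were lower, beside 3.99%. Efnb2 was at 13.6 CPM in the control and 46.1 CPM in the mutant (log2 ratio 1.76, 1.57 to 1.95), Epha4 at 8.88 and 30.1 CPM (1.76, 1.53 to 2.00) and Epha10 at 10 and 114 UMIs (3.78, 2.85 to 4.88). In the largest cluster of the class alone, Efnb2 had a log2 ratio of 1.75 and Epha4 of 2.12. Sema3e was lower at 18.6 and 6.86 CPM (-1.44, -1.73 to -1.16), and at -0.55 (-0.92 to -0.19) within that largest cluster, where 2 of the 5 lower genes still differed. Also lower were Sema6b, at 48.2 and 20.1 CPM (-1.26), and Sema5a, at 26.8 and 11.3 CPM (-1.24).

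Mesothelium-like cells, 70 and 65 in number, had 9 of 38 higher in the mutant, beside 7.7% of all genes, and none lower, beside 2.76%. Sema3e was at 10.6 and 93.1 CPM (log2 ratio 3.14, 2.47 to 3.86), Plxna4 at 139 and 627 CPM (2.17, 1.98 to 2.37) and Epha3 at 24.8 and 86.7 CPM (1.80, 1.30 to 2.31). In female-like cells alone, 68 and 22 in number, 6 of the 9 still differed. The control cells were deeper, at a median of 28114 UMIs per cell against 13729 in the mutant. Cardiomyocyte-like cells, 54 and 184, had 6 of 19 lower, beside 4.12% of all genes, and none higher, beside 1.71%. They included Epha3, at 94.7 and 7.38 CPM, where 3 control cells held 96.3% of 82 UMIs, and Sema3a, at 47.3 and 13.8 CPM. When the highest-scoring doublets were left out, 1 of the 6 still differed.

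Neuron-like cells, 193 and 469, had 6 of 48 lower in the mutant, beside 7.47% of all genes, and 1 higher, beside 2.46%. Plxna4 was at 412 and 117 CPM (log2 ratio -1.82, -1.94 to -1.71), Sema6d at 849 and 266 CPM (-1.68, -1.76 to -1.60) and Sema3a at 75.3 and 24.5 CPM (-1.62, -1.89 to -1.36). In the largest of the neuron-like clusters the ratio of Sema6d was -0.80 and that of Plxna4 -1.50. Epha10 was the higher gene, at 6.82 and 21.4 CPM.

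In mesenchyme-like cells, 993 and 685, 3 of 49 were higher, beside 5.8% of all genes, and 6 lower, beside 3.91%. Epha5 was at 63.6 and 21.8 CPM (log2 ratio -1.54, -1.75 to -1.35), Sema3c at 68.3 and 30.7 CPM (-1.15) and Sema3d at 59.1 and 26.6 CPM (-1.15). Sema4g was at 7.85 and 20.9 CPM (1.41) and Efna5 at 168 and 267 CPM (0.67, and 0.24 in the largest cluster). In that cluster 1 of the 3 higher and 4 of the 6 lower genes still differed. Epithelium-like cells, 212 and 304, had 2 of 43 higher, beside 3.57% of all genes, and 4 lower, beside 3.9%. Epha7 was at 159 and 65.4 CPM (-1.29, -1.48 to -1.10), Sema5b at 17.5 and 3.63 CPM (-2.27) and Ephb2 at 35.3 and 64.8 CPM (0.88).

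**Figure D4:**
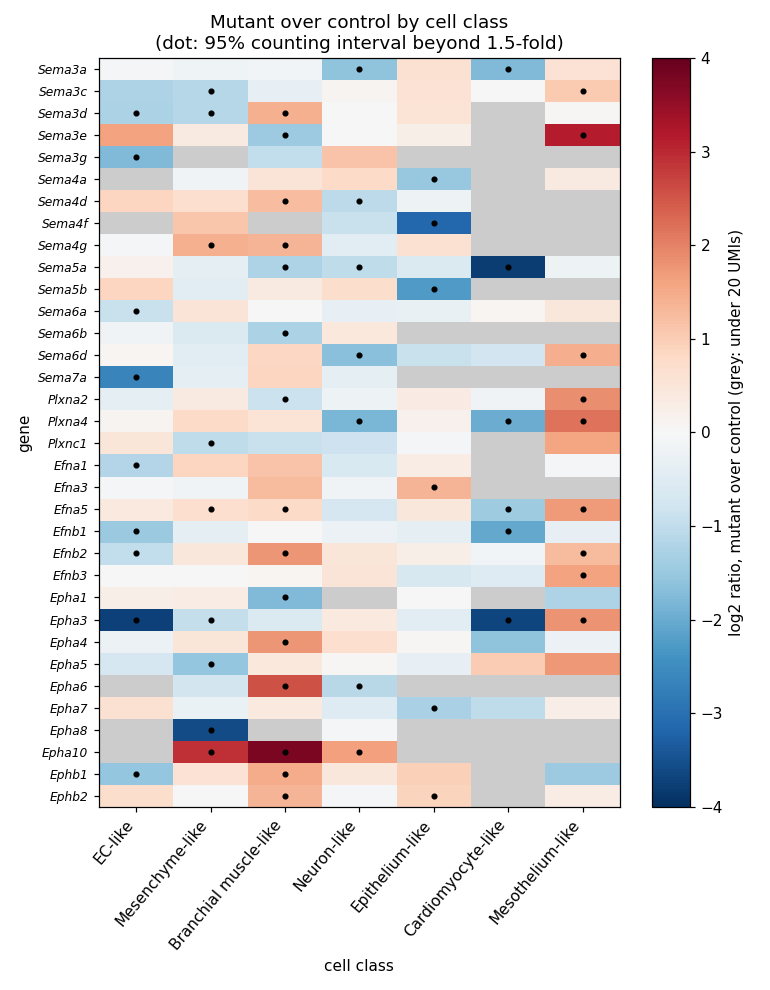
Log2 ratio of mutant over control (colour, red higher and blue lower in the mutant) for the 34 guidance genes that differed in at least 1 of the 7 classes, with genes under 20 UMIs in grey and a dot where the 95% counting interval lies beyond 1.5-fold. Efnb2 is lower in EC-like cells (-0.98) and higher in branchial muscle-like (1.76) and mesothelium-like cells (1.27).

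Epha10 was higher in the mutant in the 3 classes where it had enough UMIs. In female-like cells it met the criterion in branchial muscle-like cells alone, at a log2 ratio of 1.94, and in neuron-like cells it was at 1.11. In the largest cluster of each class it also no longer met it in mesenchyme-like and neuron-like cells. Efna5 was higher in mesenchyme-like, branchial muscle-like and mesothelium-like cells and lower in cardiomyocyte-like cells. Sema5a was lower in branchial muscle-like, neuron-like and cardiomyocyte-like cells, and Epha3 was lower in EC-like, mesenchyme-like and cardiomyocyte-like and higher in mesothelium-like cells. Without the highest-scoring doublets, Efna5, Sema5a and Epha3 no longer differed in cardiomyocyte-like cells, where Sema5a had 2 and 3 UMIs and Epha3 3 and 4. Sema5a did not meet the criterion in the largest branchial muscle-like cluster (-0.73) or in female-like neuron-like cells (-0.98), nor Epha3 in the largest mesenchyme-like cluster (-0.56). Efna1, Sema3g and Sema7a differed in EC-like cells and in no other class, where 5, 2 and 3 further classes had enough UMIs to compare. Ephb4 and Plxnd1 differed in none of the 7 and 4 classes in which they could be compared.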

How the data were processed

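Libraries were made with the 10x Genomics 5′ kit from eYFP-sorted cells, 1 pooled library per genotype. For each called cell the deposited values are raw UMI counts per gene, which the authors made by aligning reads to GRCm38 (mm10) in Cell Ranger 7.1.0. Whether intronic reads were counted is not given in the sources used here.

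Integration used canonical correlation anchors in Seurat 5.3.0, run in R 4.3.3. Cell-cycle scores were regressed out of the 2000 variable genes, from which 24 guidance and pathway genes were left out. With 30 components and 20 neighbours, resolution 0.3 gave 15 clusters. A cluster was named where at least 3 markers of its best list were raised. It stayed unnamed where another list had more genes among the cluster's 10 most raised genes. The same held where it was much shallower than its library and had no marker of its own list among them. EC-like subclusters used 20 components at resolution 0.3, and 0.6 for the finer division. Resolution 0.3 was the lowest tried at which both an arterial-like and a venous- and capillary-like subcluster were named. Their presence in the first division was thus a condition of the choice. Where identifiers shared a symbol, 1 identifier kept it, leaving 32245 symbols. Doublets were kept, since the threshold of Scrublet (scanpy 1.11.5) marked 0 control and 1 mutant cells.

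UMIs were summed per class and library. CPM had exact Poisson intervals and log2 ratios conditional exact binomial intervals, both at 95% and for counting error only. The ratios and intervals were tried on simulated Poisson sums, the model that the intervals assume. UMIs gathered in few cells were not simulated, so the trial cannot show how the intervals hold there. Because there was 1 library per genotype, no test was made. The gene families to describe, and the lists, were chosen with earlier results of these data known, and the members of the families were then taken by symbol. Named genes were textbook endothelial members, up to 4 per class with the largest ratio over other cells, all members differing in EC-like cells or reaching 50 CPM, up to 3 rises and falls in other classes with at least 50 UMIs, and those differing between arterial and venous cells. The remaining genes named, such as Ephb3, Epha2, Epha7, Plxnb2, Plxnc1 and Sema4d in EC-like cells and those given within subclusters, were chosen after their values were seen.

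Alternatives were TMM (edgeR 4.0.16) and median-ratio scaling, cells thinned to 5000 UMIs, the mean over cells, female-like cells (an Xist UMI and none of 4 Y-linked genes), a mitochondrial limit of 5%, removal of high doublet scores (0.8% per 1000 cells), no integration, resolution 0.8, classes from marker UMIs and minimums of 100 or 1 UMI. Those chosen after seeing the data were G1 cells, the venous- and capillary-like subcluster alone, the Eln, Fbln5 and Tbx20 subcluster as arterial, and, in other classes, female-like cells, doublet removal and the largest cluster. Sums and intervals were computed in Python 3.11.15 with scipy 1.17.1 and numpy 2.4.6, tables with pandas 2.3.3, and plots with matplotlib 3.10.9. Gene positions came from GENCODE on GRCm38 and promoters from RefSeq on GRCm38.p6.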

Additional observations from a re-analysis of the deposited data

Results flagged for a closer look

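Genes that differed in EC-like cells and differed in the opposite direction in another class were singled out, and these differences between classes were not tested. Efnb2 was lower in mutant EC-like cells (log2 ratio -0.98) and higher in branchial muscle-like cells (1.76) and mesothelium-like cells (1.27). Epha3 was lower in EC-like cells (-3.73, resting on few control cells) and higher in mesothelium-like cells (1.80). Ephb1 (-1.54 against 1.48) and Sema3d (-1.26 against 1.41) were lower in EC-like and higher in branchial muscle-like cells. For Sema3d the log2 ratio within venous- and capillary-like cells was -0.07, and arterial-like cells of the first division were higher in the mutant. It was lower in lymphatic-like cells, which made up 12.9% of control and 4.47% of mutant EC-like cells. The part of that share in its EC-like ratio was not tested. In female-like cells alone the branchial muscle-like ratios were 1.61 for Efnb2, 1.67 for Ephb1 and 1.29 for Sema3d, and Efnb2 in mesothelium-like cells no longer met 1.5-fold (1.14, 0.21 to 1.99). Opposite directions in classes other than EC-like were also seen for Efna5, Epha6, Plxna2, Plxna4, Sema3c, Sema3e, Sema4d and Sema6d.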

How the results depend on the processing

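No paired analysis was possible because there was 1 library per genotype. In EC-like cells, the count of guidance genes higher in the mutant was 0, and 1 without integration, with classes from marker UMIs or as the mean over cells, and 2 within the venous- and capillary-like subcluster. The count lower was 9, and 4 with cells thinned to 5000 UMIs. Fewer genes had 20 UMIs there, and ratios were also weaker, with log2 ratios of -0.79 for Efna1 and -0.77 for Efnb2. Over 18 named genes, 215 alternative values of their EC-like ratios were computed: 201 stayed on the same side of 1.5-fold, 11 no longer met it, 2 newly met it, and Efnb1 turned to 1.57 in G1 cells, from 2 control and 27 mutant UMIs. Among genes that did not meet it, the sign also turned for Ephb4 (to -0.01), Sema3c (to 0.35), Sema3f (to 0.04) and Sema4c (to just under 0) under some alternatives. Efna1, Efnb1, Efnb2, Sema3d and Sema6a no longer met it in thinned cells, Sema6a in female-like and G1 cells, Efnb1 without integration, and Sema3d in G1 cells, at a mitochondrial limit of 5% and within the venous- and capillary-like subcluster. Epha3 kept its direction, with log2 ratios from -4.58 to -0.99, and had 33 control UMIs after removal of high doublet scores. The arterial over venous ratio of Efnb2 stayed positive under every alternative and moved in the control to 2.09 in thinned cells and 1.72 with marker UMIs, and in the mutant to 2.39 with finer subclusters and 1.90 with marker UMIs. That of Ephb4 moved in the control to -0.83 with finer subclusters, 0.37 in thinned cells, -0.51 with marker UMIs and 0.33 with the Eln, Fbln5 and Tbx20 subcluster as arterial, and in the mutant to -0.60, 0.33 in female-like cells, -0.79 and -0.18 respectively. In other classes, 102 of 134 alternative values of 52 ratios still met 1.5-fold, 31 did not, and Plxna4 in cardiomyocyte-like cells turned to 0.38 without high doublet scores. Shallow subclusters and 147 control EC-like cells limit what can be seen there, and the causes of these shifts were not tested.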
